A study of Homo sapiens with 6 samples.

Results

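The genes examined here belong to the aryl hydrocarbon receptor (AHR) pathway and were measured by RNA-seq in MCF10A cells depleted of Paired Box 9 (PAX9), a transcription factor. They were AHR, its partner ARNT, the feedback repressors AHRR and TIPARP, and the target enzymes CYP1A1, CYP1B1 and ALDH3A1, 7 of the 26822 distinct gene symbols in the expression table. A row of the table was taken where its gene column, split at commas, held the exact symbol, and where a symbol had several rows the row with the highest mean FPKM was kept. FPKM is the number of sequenced fragments corrected for transcript length and for the size of the library. The set was selected on the siNT and siPAX9 values of this same comparison, so the values are given as a description and no test is attached to them.

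MCF10A is an established, non-tumorigenic line of human breast epithelial cells. The control group (siNT, 3 samples) received non-targeting siRNAs and the depleted group (siPAX9, 3 samples) received siRNAs against PAX9, both at 30 nM for 72 hours, and the question was which RNAs depend on PAX9. Both groups grew in the same medium with horse serum, epidermal growth factor, hydrocortisone, cholera toxin and insulin, and no AHR ligand is named among the additions. The knockdown was transient and was made in 1 cell line, and the labels do not say whether the 3 samples of a group were separate cultures.

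The table held 1 FPKM per group for each row, pooled by the authors over the samples, so no spread, standard error or p-value was computed from these values. It held no counts and no depth per sample. The study's methods give a range of reads per library, but the fragments counted behind each FPKM are not in the table, so no counting interval is given. PAX9 itself was at 2.80 FPKM in siNT and 0.325 FPKM in siPAX9, a ratio of 0.116. Of 6 basal breast epithelial markers, 6 were measured and within 2-fold, with KRT5 at 1558 FPKM in siNT and 1807 FPKM in siPAX9. Of 6 luminal breast markers, 3 were measured and within 2-fold, and the list summed to 270 FPKM in siNT and 186 FPKM in siPAX9. The labelled cell type, breast epithelial, was seen in both groups. Hepatocyte markers reached FPKM 1 in 0 of 4 cases. Fibroblast markers summed to 6.38 FPKM in siNT and 42.1 FPKM in siPAX9 with 2 of 4 measured (DCN and COL1A1) and COL3A1 at 0 in both groups, and leukocyte markers summed to 3.40 and 3.86 FPKM with CD3E at 0. In these bulk samples, fewer cells of a type and less RNA per cell cannot be told apart.

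AHR is a ligand-activated transcription factor of the bHLH-PAS family. In the absence of ligand it rests in the cytoplasm with HSP90 and PTGES3 (p23), and on binding a planar aromatic compound, such as a dioxin, a polycyclic hydrocarbon or a tryptophan derivative, it enters the nucleus, pairs with ARNT and binds the xenobiotic response element (XRE), whose core is GCGTG. CYP1A1 and CYP1B1, cytochrome P450 enzymes that oxidize aromatic compounds and estrogens, are its best-known targets, and AHRR and TIPARP, induced in the same way, dampen the receptor.

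A choice of sequences that hold the XRE core beside these genes is shown because CYP1A1, with the largest ratio of the set, had 5 cores in the 1000 bases upstream of its start. Each is written 5′ to 3′ on the strand of the gene and ends at the base before the start of transcription, except the second, which lies farther upstream. Capitals mark GCGTG or its reverse complement CACGC. All but the second were taken from RefSeq promoters (GRCh38.p14) at chr15:74725529-74725778 (minus strand), chr3:156674340-156674589 (plus) and chr5:321464-321713 (plus). The second was read from GRCh37 at chr15:75018730-75018869 (minus strand), 1000 to 861 bases before the start of the canonical CYP1A1 transcript.
CYP1A1 promoter: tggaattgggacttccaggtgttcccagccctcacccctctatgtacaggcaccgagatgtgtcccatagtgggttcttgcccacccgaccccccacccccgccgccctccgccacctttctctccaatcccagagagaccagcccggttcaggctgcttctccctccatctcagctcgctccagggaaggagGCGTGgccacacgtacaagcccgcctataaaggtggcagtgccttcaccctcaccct
CYP1A1 upstream stretch: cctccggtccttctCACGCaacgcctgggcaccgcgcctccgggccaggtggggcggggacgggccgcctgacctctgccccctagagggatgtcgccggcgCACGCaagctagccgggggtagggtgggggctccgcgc
TIPARP promoter at its first start: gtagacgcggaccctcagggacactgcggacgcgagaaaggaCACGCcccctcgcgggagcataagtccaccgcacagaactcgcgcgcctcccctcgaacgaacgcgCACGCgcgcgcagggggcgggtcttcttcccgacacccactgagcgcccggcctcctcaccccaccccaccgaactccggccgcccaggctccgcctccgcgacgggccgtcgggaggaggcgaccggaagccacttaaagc
AHRR promoter at its first start: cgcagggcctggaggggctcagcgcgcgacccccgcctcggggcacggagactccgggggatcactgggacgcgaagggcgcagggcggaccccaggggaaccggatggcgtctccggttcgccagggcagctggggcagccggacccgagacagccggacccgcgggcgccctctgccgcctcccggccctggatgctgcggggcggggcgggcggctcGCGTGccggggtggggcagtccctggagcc

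The CYP1A1 promoter held 1 core, which began 57 bases before the start, and the upstream stretch of 140 bases held 2, which began 986 and 898 bases before it on the other strand. Of 3 TIPARP promoters in the RefSeq table, the one shown held 2 cores, at 208 and 142 bases before its start and both on the other strand, and the other 2 held 0. Of 2 AHRR promoters, the one shown held 1 core, 30 bases before its start, and the other, at chr5:322360-322609 before the start, held 2, which began 247 and 42 bases before it, all on the strand of the gene.

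The table of RefSeq promoters, which run from 250 bases before to 50 after a start, held 8 entries for 5 of the 7 genes (CYP1A1, AHR, AHRR, ARNT and TIPARP). GCGTG, searched on both strands, was in 5 of these 8 promoters (62.5%), in 16 of 35 promoters of a list of known AHR targets (45.71%) and in 12832 of all 35116 promoters (36.54%). The longer form TNGCGTG, which contains the core, was in 1 of 8, 7 of 35 and 1935 of 35116 (5.51%). The core was common among promoters in general. The AHR promoter held 1 core, after the start, and that of ARNT held 0.

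Over the 1000 bases upstream of the canonical start in GRCh37, TIPARP had 6 cores, CYP1A1 5, AHRR 3, ARNT 2 and AHR 0. The median over 15238 such windows was 1 core, 72.86% held at least 1, and 6.49% held as many as CYP1A1 or more. Of the 5 cores of CYP1A1, 3 had the form TNGCGTG, against 1 each in AHRR and ARNT and 0 in TIPARP. At least 1 match of this form was in 3 of the 5 windows, in 29.17% of those of the AHR target list and in 19.06% of all windows. TIPARP had more cores than CYP1A1 and a far smaller ratio between groups. CYP1B1 and ALDH3A1 had no window here, and AHRR and ARNT were read only in rows shared with other genes. The part of the cores in the ratios was not tested. GCGTGACCA, which is 1 of the PAX9 motifs the study scanned for and itself contains GCGTG, was searched here as exact letters, unlike in a scan that scores near matches. It was in 0 of the 8 promoters and 0 of the 5 upstream windows of these genes, and in 55 of all 35116 promoters. A match of letters is a description and not a measured binding site.

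**Figure D1:**
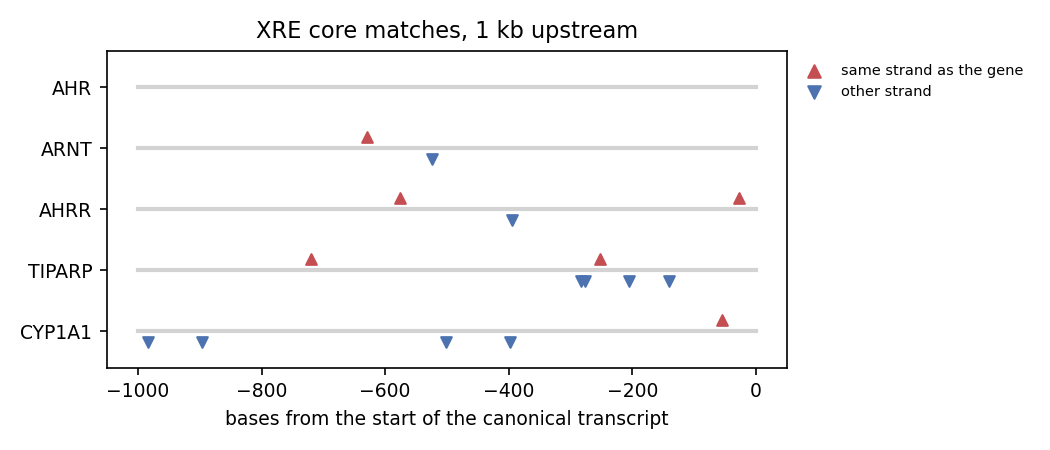
Position of each GCGTG core (horizontal axis, bases from the start of the canonical transcript) in the 1000 bases upstream of 5 genes (vertical axis). Upward triangles are matches on the strand of the gene and downward triangles matches on the other strand. CYP1A1 has 4 of its 5 cores on the other strand, between 986 and 400 bases before the start, TIPARP has 6 cores and AHR has 0.

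The receptor itself was expressed in both groups. AHR (chr7:17338276-17385775 in hg19, the build of all gene positions below) was at 17.1 FPKM in siNT and 24.7 FPKM in siPAX9, a ratio of 1.45 and a log2 ratio of 0.54. This was a difference of 7.66 FPKM, under the 2-fold limit of the study's methods, and AHR ranked 2211 by log2 ratio among the 13622 named genes with FPKM 1 or more in the higher group (here called measured), with genes listed at 0 in siNT placed first. Among 14 measured genes of the bHLH-PAS family, AHR had rank 5 in level in both groups and rank 3 in log2 ratio.

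ARNT, the nuclear partner with which AHR binds DNA, had no row of its own. Its row (chr1:150768684-150849244) was shared with CTSK, the gene of cathepsin K, and was at 12.9 FPKM in siNT and 14.0 FPKM in siPAX9, a log2 ratio of 0.11. The level cannot be divided between the 2 genes. ARNT2, the paralogue that can take the place of ARNT, was the 1 gene of 9 partners and coactivators past the 2-fold limit, at 4.23 FPKM in siNT and 0.428 FPKM in siPAX9 (log2 ratio -3.31, in a row shared with MIR5572). It was measured only through siNT, and 7.22% of all measured genes were at least 2-fold lower. The other 8 were within 2-fold, among them NCOA3 at 28.5 and 37.9 FPKM and KLF6 at 33.0 and 50.5 FPKM, and the median log2 ratio of the 9 was 0.19.

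The HSP90 chaperones and PTGES3, which hold the receptor in the cytoplasm, were within 2-fold, with lower values in siPAX9. HSP90AB1 was at 469.5 FPKM in siNT and 330.3 FPKM in siPAX9 (log2 ratio -0.51), HSP90AA1 at 326 and 273 FPKM and PTGES3 at 163 and 127 FPKM (log2 ratio -0.35). Of 8 enzymes of tryptophan breakdown, a pathway whose product kynurenine is an AHR ligand, 4 were measured (1 of them, IL4I1, in a row shared with NUP62), 0 were past 2-fold, and the median log2 ratio was -0.55. The entry enzymes were under FPKM 1, with IDO1 at 0.0350 and 0.0963 FPKM and IDO2 and TDO2 listed at 0 in both groups. KYNU, kynureninase, which cleaves kynurenine, was at 105 FPKM in siNT and 86.5 FPKM in siPAX9.

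Of the feedback repressors only TIPARP could be read on its own, and it was higher in siPAX9 but under 2-fold. AHRR, which competes with AHR for ARNT, shared its row (chr5:271736-438405) with PDCD6, a calcium-binding protein gene, and the row was at 57.4 FPKM in siNT and 58.4 FPKM in siPAX9, a log2 ratio of 0.02. How much of it was AHRR is not given by the table, so AHRR itself was not measured apart from its neighbour. TIPARP, a mono-ADP-ribosyltransferase (PARP7) that modifies AHR, had 3 rows at 1 interval (chr3:156390960-156424652). The highest was at 14.4 FPKM in siNT and 22.3 FPKM in siPAX9 (ratio 1.55, log2 ratio 0.64), and the others were at 7.79 and 14.1 FPKM (log2 ratio 0.86) and at 5.91 and 7.84 FPKM (log2 ratio 0.41). Each of the 3 rows was higher in siPAX9 and under 2-fold, and their sum was 28.1 FPKM in siNT and 44.2 FPKM in siPAX9 (ratio 1.58). TIPARP had rank 5 by log2 ratio among 15 measured PARP family genes, and PARP9 was the 1 of them past 2-fold, at 7.23 and 14.7 FPKM. Over all measured genes 7.75% were at least 2-fold higher.

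The target enzymes were the members with at least 2-fold higher values in siPAX9. They were 3 of the 7 (CYP1A1, CYP1B1 and ALDH3A1), and 0 of the 7 were at least 2-fold lower. Over all 13622 measured genes, 1056 (7.75%) were at least 2-fold higher in siPAX9 and 984 (7.22%) at least 2-fold lower, and the median log2 ratio was -0.07. Since the set was selected on these values, nothing is read from the difference between these shares.

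CYP1A1 (chr15:75011883-75017951) was at 0.0322 FPKM in siNT and 3.95 FPKM in siPAX9. The ratio was 123 and the log2 ratio 6.94, a difference of 3.92 FPKM. The ratio rests on a control level near 0, and with 1 FPKM added to both values the log2 ratio was 2.26. Among all 56 cytochrome P450 symbols, filtered or not, 28 had a higher level than CYP1A1 in siNT and 27 a lower one, and 8 had a higher level in siPAX9. CYP1A1 passed the FPKM minimum only through siPAX9, and 15 measured genes above 0 in siNT had a larger ratio, beside 76 that were listed at 0 in siNT and have none. Its level in siPAX9 was still the lowest of the 7 genes. Among all named genes, 50 were above 0 and under 0.1 FPKM in siNT with at least 1 FPKM in siPAX9, and CYP1A1 was among them.

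CYP1B1 (chr2:38152462-38304411, an interval that RMDN2 shares), a CYP1 enzyme found mainly outside the liver, was at 36.9 FPKM in siNT and 74.0 FPKM in siPAX9. The ratio of 2.01 was just past the 2-fold limit (log2 ratio 1.00), and with 1 FPKM added it was just under it (0.98). TIPARP, at a ratio of 1.55, was the nearest member on the other side of the limit. CYP1B1 had the smaller ratio of the CYP1 pair and the larger difference, 37.1 FPKM, and it had rank 2 in level among the measured cytochrome P450 genes in siNT and rank 1 in siPAX9. CYP1A2, the liver enzyme of the same subfamily, 23233 bases from CYP1A1, was listed at 0 in siNT and stayed under FPKM 1 in siPAX9.

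ALDH3A1 (chr17:19641298-19651746), an aldehyde dehydrogenase that clears products of lipid peroxidation and a classical marker of AHR activation, was at 9.71 FPKM in siNT and 71.7 FPKM in siPAX9. The ratio was 7.38, the log2 ratio 2.88 (2.76 with 1 FPKM added) and the difference 62.0 FPKM, the largest difference of the 7. ALDH3A1 had rank 6 in level among 15 measured aldehyde dehydrogenase genes in siNT and rank 2 in siPAX9. Its close relative ALDH3A2, the fatty aldehyde dehydrogenase, was at 72.4 FPKM in siNT and 63.1 FPKM in siPAX9.

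**Figure D2:**
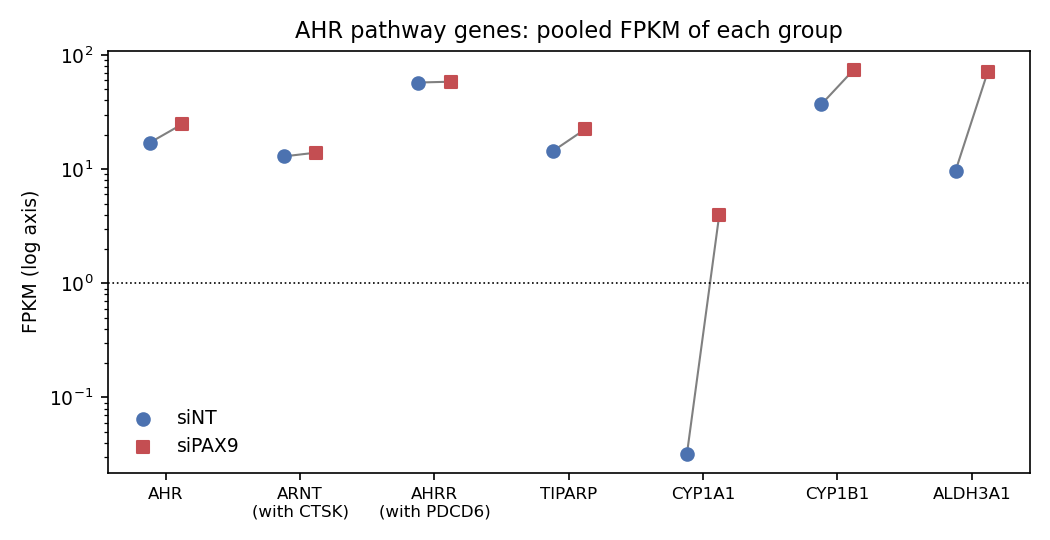
Pooled FPKM (vertical log axis) of the 7 genes (horizontal axis) in siNT (blue circles) and siPAX9 (red squares), joined by a line per gene. The dotted line is FPKM 1, which CYP1A1 crosses from 0.0322 to 3.95, while AHR, ARNT and AHRR lie above it in both groups at ratios of 1.45, 1.08 and 1.02. There is 1 pooled value per group, so no error bar is drawn.

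**Figure D3:**
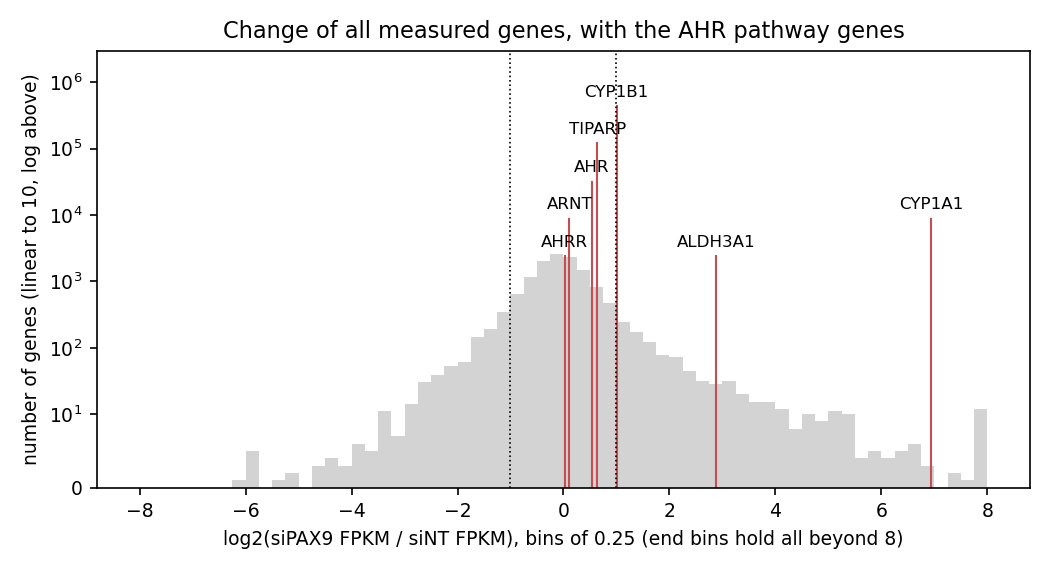
Number of measured named genes (vertical axis, linear to 10 and log above) by log2 ratio of siPAX9 over siNT (horizontal axis), with the 7 genes marked by red lines whose heights only separate the labels. Dotted lines mark 2-fold, end bins hold values beyond the axis limits, and genes listed at 0 in a group are not drawn. AHRR and ARNT (0.02 and 0.11) lie in the bulk of genes, CYP1B1 (1.00) on the 2-fold line, and ALDH3A1 (2.88) and CYP1A1 (6.94) in the right tail.

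Other AHR targets were taken from a list of 28 genes that includes CYP1A1, CYP1B1, ALDH3A1, TIPARP and AHRR. Of 22 measured, 8 were at least 2-fold higher in siPAX9, 2 at least 2-fold lower and 12 within 2-fold, and the median log2 ratio was 0.74. Without the 5 members, 17 were measured, of which 5 were higher and 2 lower, with a median log2 ratio of 0.34. Over all measured genes the shares were 7.75% and 7.22%, and nothing is read from the difference, since SERPINB2 and OVOL1 of those 5 passed the FPKM minimum only through siPAX9 and 2 others are 1 row. Of those 5, UGT1A1 and UGT1A6, glucuronosyltransferases, share 1 row with the rest of the UGT1A cluster, at 1.26 FPKM in siNT and 5.56 FPKM in siPAX9 (log2 ratio 2.14).

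The other higher targets were not enzymes of xenobiotic metabolism. SERPINB2, the inhibitor PAI-2, was at 0.0742 FPKM in siNT and 8.85 FPKM in siPAX9 (log2 ratio 6.90), OVOL1, an epithelial transcription factor, at 0.0497 and 4.02 FPKM (log2 ratio 6.34) and EREG, the growth factor epiregulin, at 4.89 and 15.6 FPKM (log2 ratio 1.68). SERPINB2 and OVOL1, like CYP1A1, were near 0 in siNT. The lower targets were IL6, at 3.61 and 0.220 FPKM (log2 ratio -4.04), and STC2, stanniocalcin 2, at 34.1 and 9.19 FPKM (log2 ratio -1.89).

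Several standard AHR targets were within 2-fold. Just under the limit were PTGS2 (cyclooxygenase 2, 0.560 and 1.11 FPKM, log2 ratio 0.98), IL1B (12.6 and 24.7 FPKM, log2 ratio 0.97) and XDH (xanthine dehydrogenase, 13.9 and 25.1 FPKM, log2 ratio 0.85), and with log2 ratios centred on the median of all genes 10 of the list were at least 2-fold higher. Farther from it, NQO1, a quinone reductase, was at 33.3 FPKM in siNT and 42.2 FPKM in siPAX9 (log2 ratio 0.34), SLC7A5, an amino acid transporter, at 391 and 482 FPKM (log2 ratio 0.30), BAX at 79.5 and 84.0 FPKM and NFE2L2 at 67.8 and 63.9 FPKM. NFE2L2 encodes NRF2, which drives NQO1 and also ALDH3A1. Of 8 genes of the NRF2 type 2 were at least 2-fold higher, TXNRD1 (16.6 and 63.9 FPKM) and HMOX1 (0.841 and 2.51 FPKM), and 1 was lower, the cystine transporter SLC7A11 (11.8 and 5.43 FPKM). HMOX1 was measured only through siPAX9, so its direction came with the filter. Over all measured genes 7.75% were at least 2-fold higher and 7.22% lower, and nothing is read from the difference.

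Values of 2 other groups, listed with earlier results of these data known, also differed between siNT and siPAX9. Of 11 genes of epithelial differentiation 9 were measured and all 9 were at least 2-fold higher in siPAX9 (1 of them listed at 0 in siNT). Over all measured genes this share was 7.75%, and nothing is read from the difference. Of these, 6 were under FPKM 1 in siNT and were measured only through siPAX9, so their direction came with the filter. SPRR1B (3.18 and 334 FPKM), TGM1 (10.6 and 53.6 FPKM) and KRT10 (21.0 and 148 FPKM) were above it in both groups. The list had a summed level of 36.3 FPKM in siNT and 617 FPKM in siPAX9, for example IVL (involucrin), at 0.0910 and 15.8 FPKM. Of 6 proliferation genes 6 were at least 2-fold lower, beside 7.22% of all measured genes. Their summed level was 149 FPKM in siNT and 39.3 FPKM in siPAX9. All 6 are among genes that the study itself listed as decreased in these same data. Their direction was therefore known beforehand, and nothing is read from the count. Of 4 fibroblast markers, DCN (5.85 and 37.9 FPKM) and COL1A1 (0.454 and 4.13 FPKM) were higher as well, COL1A1 being measured only through siPAX9. The others were under FPKM 1, PDGFRB at 0.0781 and 0.0637 FPKM and COL3A1 at 0 in both groups. The part of these groups in the values of CYP1A1, CYP1B1 and ALDH3A1 was not tested.

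**Figure D4:**
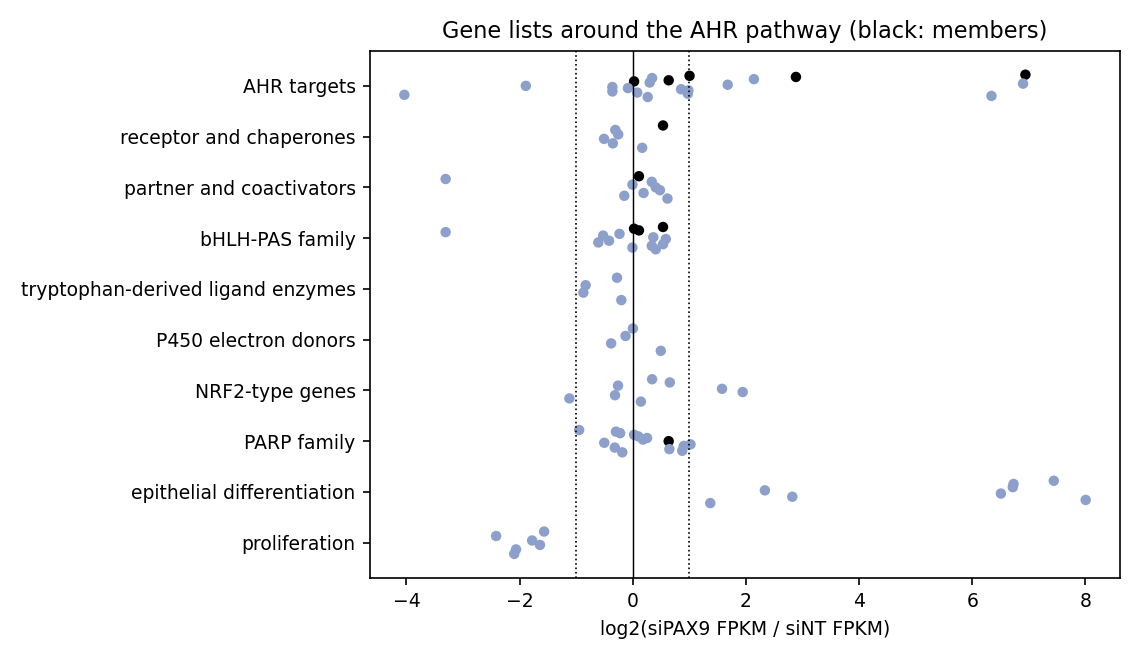
log2 ratio of siPAX9 over siNT (horizontal axis) of each measured gene in 10 gene lists (vertical axis), 1 point per table row, with the 7 genes in black and dotted lines at 2-fold. Genes listed at 0 in a group are not drawn. The receptor, chaperone and electron donor lists lie within 2-fold, the AHR targets spread from -4.04 to 6.94, the differentiation genes lie right of the 2-fold line and the proliferation genes left of it.

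Each enzyme was set among its own family. Of 56 cytochrome P450 symbols, 18 were measured, 6 were at least 2-fold higher and 3 at least 2-fold lower in siPAX9, with a median log2 ratio of 0.42, beside 7.75% and 7.22% of all measured genes. Of the 6, CYP1A1, CYP4F12 and CYP4F3 were under FPKM 1 in siNT and were measured only through siPAX9, so their direction came with the filter. After CYP1A1 the largest ratios were those of the CYP4 enzymes, which oxidize fatty acids: CYP4F12 at 0.0876 and 1.29 FPKM, CYP4F3 at 0.615 and 7.31 FPKM (log2 ratio 3.57) and CYP4B1 at 3.74 and 17.6 FPKM (log2 ratio 2.24). The lower ones were CYP27B1, which makes active vitamin D (14.0 and 4.34 FPKM), CYP2U1 (3.89 and 1.61 FPKM) and CYP4X1 (4.93 and 2.24 FPKM). CYP2D6, in a row shared with LOC101929829, was at 1.15 and 2.89 FPKM, and CYP1B1 had rank 6 of the 18 by ratio. POR, the reductase that passes electrons to the microsomal P450 enzymes, was at 17.8 FPKM in both groups.

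Of 21 aldehyde dehydrogenase symbols, 15 were measured, 4 were at least 2-fold higher and 2 lower, with a median log2 ratio of -0.20. Over all measured genes the shares were 7.75% and 7.22%, and nothing is read from the difference. ALDH3B2 was measured only through siPAX9 and ALDH1L1 only through siNT, so their direction came with the filter. The class 3 relatives ALDH3B2 (0.346 and 5.89 FPKM, log2 ratio 4.09) and ALDH3B1 (3.37 and 9.26 FPKM, log2 ratio 1.46) were at least 2-fold higher with ALDH3A1 while the class 3 enzyme ALDH3A2 was not (log2 ratio -0.20), and so was ALDH1A3, a retinoic acid-forming enzyme (9.48 and 88.6 FPKM, log2 ratio 3.22). The lower ones were the folate enzymes ALDH1L2 (22.9 and 3.33 FPKM) and ALDH1L1 (1.07 and 0.142 FPKM). ALDH3A1 had rank 3 of the 15 by ratio.

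**Figure D5:**
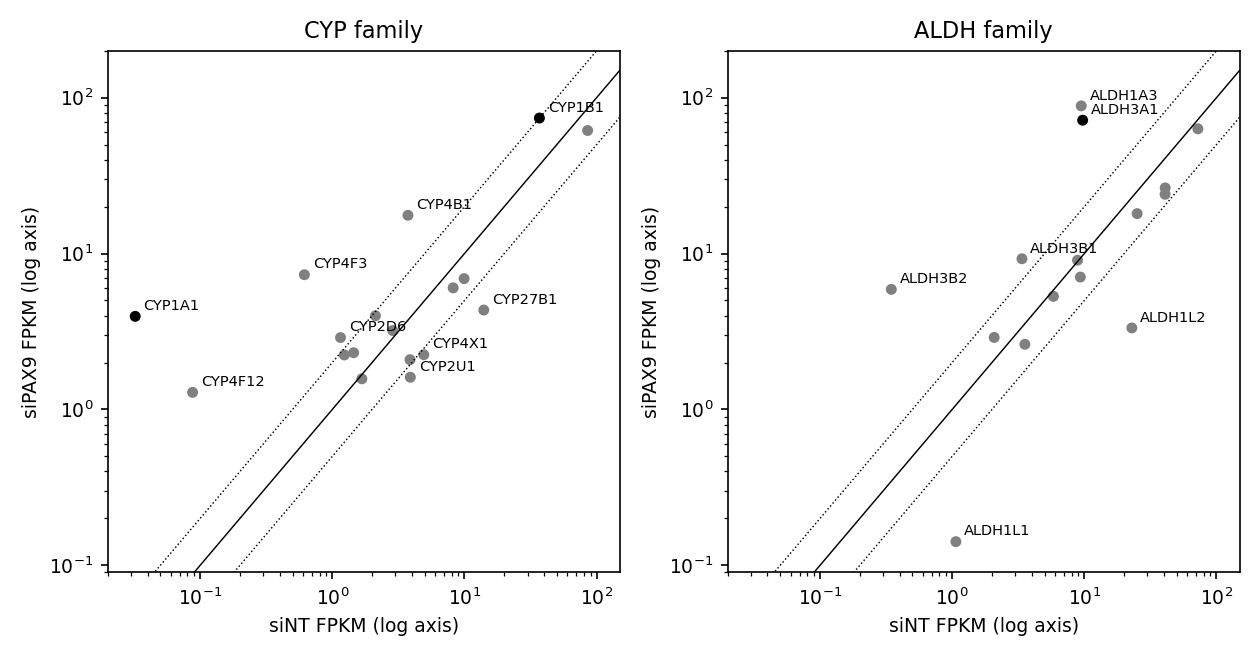
Pooled FPKM in siNT (horizontal log axis) against siPAX9 (vertical log axis) of the measured cytochrome P450 (left) and aldehyde dehydrogenase genes (right), with CYP1A1, CYP1B1 and ALDH3A1 in black. The solid line marks equal levels and dotted lines 2-fold, and genes at or past 2-fold are named. CYP1A1 lies farthest above the solid line, at 0.0322 and 3.95 FPKM, where P450 genes under FPKM 1 in both groups are not drawn, and CYP1B1 has the highest siPAX9 level of its family.

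The genes nearest to each enzyme were found among 18408 named genes above 0 in both groups, by Euclidean distance between the 2 log2 FPKM values. Nearest to CYP1A1 were CRYAB (distance 0.522, at 0.0441 and 4.73 FPKM), a small heat shock protein gene, OVOL1 (0.623) and CALML5 (0.709, at 0.0202 and 3.42 FPKM), a calmodulin-like gene of differentiating skin. Nearest to ALDH3A1 were PSCA (0.0197, at 9.71 and 70.7 FPKM), a cell-surface antigen gene, ALDH1A3 (0.307) and MIR1909 (0.420). Nearest to CYP1B1 were MTRNR2L8 (0.128, at 38.0 and 68.1 FPKM), NPEPPS (0.151) and ANXA2P1 (0.182). Likeness here is over 2 pooled values only.

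Named genes beside the enzymes on the chromosome did not share their ratios throughout. Next to CYP1A1, EDC3, a decapping factor gene 23497 bases away, was at 11.9 FPKM in both groups. RMDN2, in the same interval as CYP1B1, was at 2.03 FPKM in siNT and 1.78 FPKM in siPAX9. Next to ALDH3A1, the transporter gene SLC47A2, 18856 bases away, was at 1.23 and 4.05 FPKM (log2 ratio 1.72), and ULK2, a kinase gene, at 2.74 and 4.05 FPKM.

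Loci without a gene symbol were looked at within 50 kb of each gene, a choice made after values were seen. Beside TIPARP (chr3:156428087-156455056) there were 15 measured loci, of which 11 were at least 2-fold higher in siPAX9 and 0 lower, with a median log2 ratio of 1.89 over the 15. Beside CYP1B1 (chr2:38314261-38328281) 5 of 6 were higher, beside ARNT 1 of 2 and beside AHRR 1 of 4. Over all 11544 measured loci without a symbol, 27.4% were at least 2-fold higher and 12% at least 2-fold lower, so higher values were common in this class of loci. Within the same distance of AHR, CYP1A1 and ALDH3A1 there were 0 such loci.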

How the data were processed

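Poly(A)+ RNA of 3 siNT and 3 siPAX9 samples of MCF10A cells was sequenced by the authors as single-end reads, aligned to UCSC hg19 with Bowtie 2 and quantified with Cufflinks in Partek Flow; the versions of Bowtie 2 and Cufflinks and the normalization between libraries are not given in the sources used here. The deposited table gives 1 FPKM per group and row, which the authors pooled over the samples. Its other columns hold the authors' fold changes, test statistics, p-values and q-values and were not used.

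The members and gene lists were chosen with earlier results of these data known, and some list genes are not reported here. From the deposited FPKM, the ratio and log2 ratio of siPAX9 over siNT were computed without a pseudocount, for genes that reached FPKM 1 in either group. Values under 1e-06 (95) were read as 0. Of 41656 rows, 13978 had no symbol and 876 had several, and 751 symbols had several rows. With 1 pooled value per group no test was run. Named were the 7 members, PAX9 and list genes at or past 2-fold with up to 4 further genes of highest mean FPKM. Also named were the CYP and ALDH genes at or past 2-fold, the 3 genes nearest to each enzyme and chromosomal neighbours. For the differentiation and proliferation lists only examples or sums are given, and PTGS2, IL1B, XDH, IDO1, IDO2, TDO2 and ALDH3A2 were chosen after their values were seen. Motifs were searched on both strands in RefSeq promoters (GRCh38.p14) and upstream of canonical GENCODE starts in GRCh37. Alternatives were a pseudocount of 1 or 0.1, centring, no FPKM minimum, limits of 1.5- and 4-fold, summed rows, rows with a single symbol and rows with status OK. Python 3.11.15, numpy 2.4.6, pandas 2.3.3 and matplotlib 3.10.9 were used, and the scripts were tested on simulated data.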

Additional observations from a re-analysis of the deposited data

How the results depend on the processing

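Of 103 values under alternatives, 91 stayed within 1.5 times the reported count or ratio with the same direction, 12 moved further and 0 reversed. The members at least 2-fold higher were CYP1A1, CYP1B1 and ALDH3A1 under 6 of 9 alternatives. CYP1B1 left with 1 FPKM added (log2 ratio 0.98) and at the 4-fold limit, and TIPARP joined at the 1.5-fold limit. The log2 ratio of CYP1A1 was 2.26 with 1 FPKM added and 4.94 with 0.1 added, by construction, since its siNT level was near 0. The count of all named genes at least 2-fold higher was 681 with 1 FPKM added, 3780 without an FPKM minimum, 2012 at the 1.5-fold limit and 436 at the 4-fold limit, and the count lower was 2178, 2319 and 239 under the last 3 of these. Of the AHR target list, 14 were higher without an FPKM minimum and 1 was lower at the 4-fold limit. TNGCGTG was in 12.5% of the member promoters, against 62.5% for the core it contains, and the core was in 80% of the windows of 1000 bases. Centring on the median of all genes gave log2 ratios of 1.07 for CYP1B1 and 2.95 for ALDH3A1.

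No paired analysis was possible because the deposited columns carry no value per sample. For the same reason leaving out each replicate in turn could not be run, and no error of a ratio was computed. The 0.0322 FPKM of CYP1A1 in siNT is close to 0, and the size of its ratio depends on it. ARNT and AHRR were read only in rows shared with CTSK and PDCD6.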
